A study of Mus musculus with 7 samples.

Results

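The genes examined were 10 genes of purinergic signalling, read from the rows of the deposited count table that bear their names: the nucleotide receptors P2ry12, P2ry13, P2ry14, P2ry6, P2rx4 and P2rx7, the adenosine receptors Adora3 and Adora2a, and the ectonucleotidases Entpd1 and Nt5e. All 10 names were found among the 55341 gene names of the table. Bulk RNA-seq had been done on CD11b+CD45low microglia sorted by flow cytometry from grafts of WT embryonic cortical cells in the cortex of 5xFAD mice (3 libraries, Graft 1 to 3) and from small pieces of host cortex beside the graft (4 libraries, Control 1 to 4). In both groups the host was, per the labels and methods, a female C57BL/6 mouse carrying the 5xFAD transgenes, human APP with the Swedish, Florida and London mutations and mutant human PS1 under the neuronal Thy1 promoter, aged 14 weeks by the labels and killed 4 weeks after injection. Both groups therefore came from mice that carry the transgenes and had received a graft, and no library from mice without either was used here. The labels do not say which libraries came from separate mice, so the P values measure the spread between these libraries only.

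Cells that are damaged or active release ATP and UDP, and microglia, the resident macrophages of the brain, sense them through purinergic receptors. P2Y receptors couple to G proteins, P2X receptors are cation channels opened by ATP, and adenosine acts on receptors of its own. On the cell surface the enzyme CD39 (Entpd1) degrades ATP and ADP to AMP, and CD73 (Nt5e) turns AMP into adenosine. P2ry12 is a marker of microglia in the undisturbed brain, where its receptor guides processes towards sites of injury.

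Of the 10 genes, the ADP receptors P2ry12 and P2ry13 were lower in every library from inside than in every library from outside the graft, with differences of the means of -27.3% and -30.5%, but neither passed an adjusted P of 0.01 or 0.05 in the 2 tests used. Of all genes tested, 5.02% were lower in this way, and of the 4048 genes with a mean of 50 CPM or more 7.91%. Total counts ran from 18644807 to 25882122 per library. Values are given as CPM, each library's counts scaled to a common total with TMM (trimmed mean of M values) factors. Groups were compared over 15257 genes that passed a filter on low counts, with edgeR's quasi-likelihood test and with limma's voomWithQualityWeights, the test named in the study's methods, and P values were adjusted over all 15257 genes by the Benjamini-Hochberg method. Of the 10 genes, 9 passed the filter and Adora2a did not. At an adjusted P below 0.01, 0 of the 9 were called in edgeR and 0 in voomWithQualityWeights, against 0% and 0.0197% of all genes tested. At 0.05 the counts were again 0 and 0, against 0.0983% and 0.492%. At an unadjusted P below 0.05, 3 of the 9 passed in edgeR and 4 in voomWithQualityWeights, all of them P2Y receptors, against 9.55% and 12.2% of all genes. Of these, 2 were lower inside the graft in edgeR and 3 in voomWithQualityWeights, against 3.79% and 4.71% of all genes that passed and were lower. The other in both tests was P2ry14, with a higher estimate inside the graft. The outside libraries alone would not have taken P2ry14 past the filter, so its P values carry that selection in part. The DESeq2 Wald test, tried as an alternative, called 2 of the 9 at an adjusted P below 0.05, P2ry12 and P2ry13, both lower inside the graft, where it called 2.76% of all genes and 0.656% as lower, and 0 at 0.01, where it called 1.52%. The median log2 fold change of the 9 genes, inside minus outside the graft, was -0.19 in edgeR, and that of all genes tested was -0.0064. The median of the members was -0.080 without Control 4, where Nt5e was not tested and 8 genes remained, and -0.063 with libraries scaled to the microglia markers described below.

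Markers of the sorted cell type and of others were examined beside these genes. Microglial genes were abundant in all libraries: Cx3cr1 (the fractalkine receptor) ranged from 6195 to 6915 CPM inside and from 6953 to 8274 CPM outside the graft, and the 9 genes of the microglia list summed to between 37355 and 41639 CPM inside and between 40976 and 45461 CPM outside. Of these 9 genes, 2 (Cx3cr1 and Sall1) were lower in every inside library than in every outside library, and 1 (Ptprc) was higher. The shares of all genes tested were 5.02% and 5.65%. Neutrophil transcripts differed more in summed level. The 7 genes of the neutrophil list summed to 6488 CPM in Graft 1, 648 CPM in Graft 2 and 13629.9 CPM in Graft 3, against 0.311 to 291 CPM outside the graft, with 5 of the 7 genes higher in every inside library than in every outside library. As a share of counts they made up at most 1.39% of a library. The monocyte list (85.7 to 1482 CPM inside, 6.94 to 33.0 CPM outside), the border-associated macrophage list (36.4 to 156 CPM and 11.2 to 35.8 CPM) and the list of dividing cells (71.2 to 108 CPM and 5.95 to 33.6 CPM) were also higher in every inside library, as was the summed list of T and NK cells (2.80 to 12.006 CPM and 0 to 0.374 CPM). Gene by gene, 5 of the 5 dividing-cell genes, 4 of the 9 macrophage genes and 3 of the 8 monocyte genes were higher in every inside library. This was so for 0 of the 7 T and NK genes, and for 5.65% of all genes tested. At an adjusted P below 0.05, voomWithQualityWeights called 2 dividing-cell genes, 1 macrophage gene and 0 neutrophil genes, against 0.492% of all genes tested. In edgeR 0 genes of these lists were called. The astrocyte list was lower in every inside library (247 to 291 CPM inside, 325 to 351 CPM outside). Of its 4 genes only 1, Slc1a3, was lower in this way, and it made up nearly all of the sum (means 268 and 338 CPM). The means of Aqp4 were 1.49 CPM inside and 2.15 CPM outside. Those of Gfap (0.766 and 0.211 CPM) and Aldoc (1.24 and 0.670 CPM) went the other way. The part of these other cells in the values below was not tested. In bulk libraries a change in the share of a cell type and a change in RNA per cell cannot be told apart.

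P2ry12 (ENSMUSG00000036353.13) encodes the Gi-coupled ADP receptor of microglial processes. It lies on the minus strand of chromosome 3 of GRCm38 from 59216272 to 59262871, with 5 annotated transcripts. P2ry13 (ENSMUSG00000036362.2), which encodes a second Gi-coupled ADP receptor, lies on the same strand from 59207892 to 59210882, 5389 bases away with no other gene lying wholly between them. P2ry14 (ENSMUSG00000036381.13), the gene of a receptor for UDP-glucose, follows from 59113855 to 59153618, also on the minus strand. All 3 lie inside Med12l, which is transcribed from the plus strand. Reads were counted without regard to strand, but only 9 bases of the P2ry12 exons, 0.353% of their length, are shared with a Med12l exon, and the other 2 genes share none. Med12l itself averaged 127 CPM inside the graft (SD 18.2) and 143 CPM outside it (SD 12.2), with an adjusted P of 0.766 in edgeR. The start regions of the neighbours P2ry12 and P2ry13 are shown because these genes were the only members without overlap between the groups. Each window holds 250 bases before and 50 bases after the RefSeq start on GRCm38.p6, 5' to 3' on the minus strand (chr3:59262936-59263235 for P2ry12 and chr3:59210833-59211132 for P2ry13), and capitals mark the letters GGAAGT on either strand, the core bound by factors of the ETS family, to which PU.1 of macrophages belongs.
P2ry12: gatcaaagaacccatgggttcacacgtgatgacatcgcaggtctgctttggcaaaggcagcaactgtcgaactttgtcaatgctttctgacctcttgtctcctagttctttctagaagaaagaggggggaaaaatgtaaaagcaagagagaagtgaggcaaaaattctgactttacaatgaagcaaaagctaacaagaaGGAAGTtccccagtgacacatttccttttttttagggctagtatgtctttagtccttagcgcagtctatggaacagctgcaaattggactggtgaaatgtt
P2ry13: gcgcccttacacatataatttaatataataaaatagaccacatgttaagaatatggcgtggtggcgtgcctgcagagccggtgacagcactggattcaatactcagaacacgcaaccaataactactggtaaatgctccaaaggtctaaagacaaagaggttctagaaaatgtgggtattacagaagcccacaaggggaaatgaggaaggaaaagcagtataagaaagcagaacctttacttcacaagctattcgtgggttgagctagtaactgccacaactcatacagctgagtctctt
The P2ry12 window held GGAAGT once and the P2ry13 window did not hold it, and 23.8% of the 32851 mouse windows of this length held it on either strand. Neither window held the longer form GAGGAAGT (3.20% of all windows, and always a match of GGAAGT as well), the PU.1 and IRF composite with GGAA and GAAA 2 bases apart (2.72%) or the MEF2 letters CTA and TAG 4 bases apart (3.69%). These matches describe the letters of the windows and do not show binding.

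P2ry12 was the most abundant member, in CPM and per length. Inside the graft it had 5949.8 CPM in Graft 1, 4358 CPM in Graft 2 and 4429.8 CPM in Graft 3. Outside it had 6302, 6055, 7439.8 and 7222 CPM in Control 1 to 4. Every inside library lay below every outside library, and Graft 1 was the closest to the outside libraries. The means were 4913 ± 899 CPM (SD, n = 3) and 6755 ± 679 CPM (SD, n = 4), a difference of -27.3%. edgeR put the log2 fold change at -0.46 with a standard error of 0.12 (adjusted P = 0.185), and voomWithQualityWeights at -0.50 with a 95% confidence interval of -0.75 to -0.24 (adjusted P = 0.0854). The confidence interval, like those that follow, is not adjusted for the number of genes. In DESeq2 the adjusted P was 0.0433, the lowest of the alternatives tried for edgeR, among which it reached 0.461.

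P2ry13 followed the same pattern at a lower level. It had 1575, 1140.1 and 1425 CPM in Graft 1 to 3 and 1828, 1710.2, 2171 and 2232 CPM in Control 1 to 4. Again every inside library was below every outside library, with the lowest value in Graft 2. The means were 1380.2 ± 221 CPM (SD, n = 3) and 1986 ± 256 CPM (SD, n = 4), a difference of -30.5%. The edgeR estimate of the log2 fold change was -0.52 with a standard error of 0.14 (adjusted P = 0.174), and that of voomWithQualityWeights was -0.58 with a 95% confidence interval of -0.86 to -0.31 (adjusted P = 0.0679). In DESeq2 the adjusted P was 0.0199, the lowest of the alternatives tried for edgeR, among which it reached 0.409. The ratio of P2ry12 to P2ry13 CPM within a library ran from 3.11 to 3.82 inside and from 3.24 to 3.54 outside the graft, so the inside range enclosed the outside range.

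P2ry12 was also set against Cx3cr1 within the same library, which does not depend on the scaling of libraries. The ratio of P2ry12 to Cx3cr1 CPM was 0.700 to 0.860 inside and 0.871 to 1.01 outside the graft, without overlap between the groups. The nearest libraries were Graft 1 (0.860) and Control 2 (0.871). P2ry12 was already known not to overlap, and the share of other genes without overlap in such a ratio was not computed. The ratio is therefore a description and not separate support. With libraries scaled to the summed counts of the 9 microglia markers, a setting chosen after the data were seen, the log2 fold changes in edgeR were -0.34 for P2ry12 (adjusted P = 0.180) and -0.40 for P2ry13 (adjusted P = 0.221). The 7 neutrophil genes made up 0.639%, 0.0615% and 1.39% of the counts of Graft 1 to 3, whose P2ry12 values were 5949.8, 4358 and 4429.8 CPM. A relation between the neutrophil share and P2ry12 was not tested. Without Graft 3 the edgeR log2 fold change was -0.39 for P2ry12 and -0.55 for P2ry13, and without Graft 2 it was -0.38 and -0.40.

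**Figure D1:**
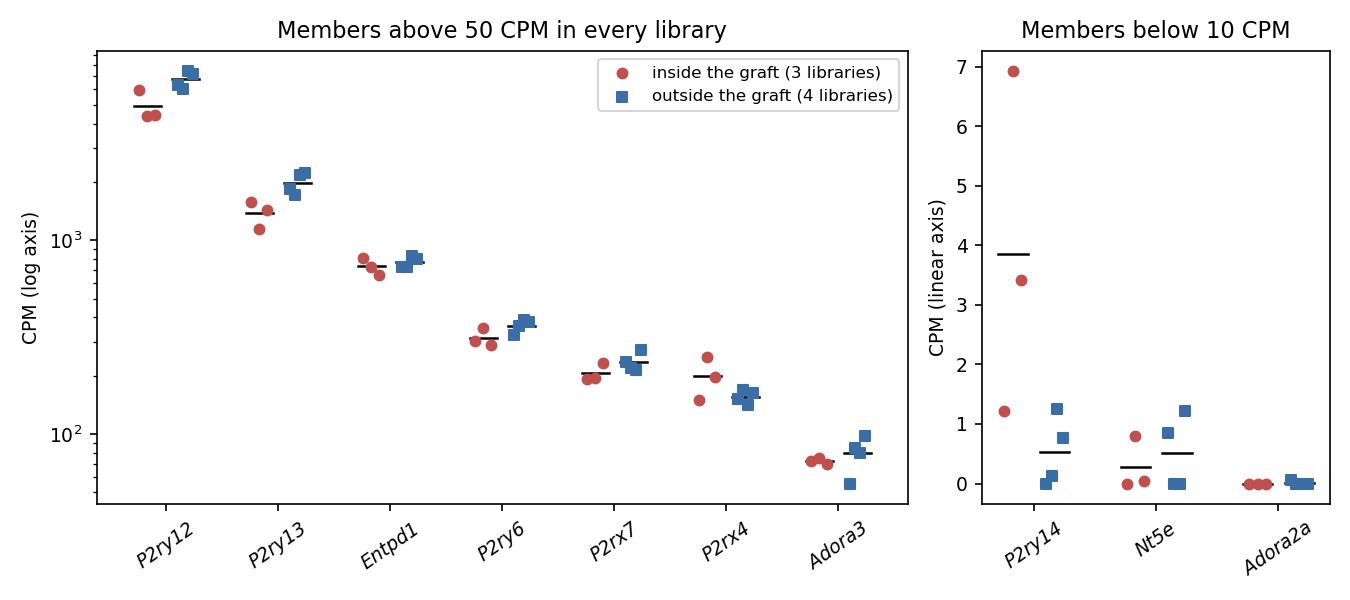
CPM of the 10 purinergic genes in each library, on a log axis for the 7 genes above 50 CPM (left) and on a linear axis for the 3 genes below 10 CPM (right). Each point is 1 library, circles from inside and squares from outside the graft, and horizontal lines are group means. P2ry12 and P2ry13 are the genes whose groups do not overlap.

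P2ry14, the third receptor of the cluster, was scarce and had the opposite sign. It had 31, 156 and 81 counts in Graft 1 to 3, or 1.22, 6.92 and 3.41 CPM. In Control 1 to 4 it had 0, 3, 31 and 19 counts, or 0, 0.133, 1.25 and 0.769 CPM. Graft 2 and 3 were above every outside library, but Graft 1 was just below Control 3, so the groups overlapped. The outside libraries alone would not have taken P2ry14 past the filter on low counts. Its fold change and P values carry that selection in part. edgeR put the log2 fold change at 2.81 with a standard error of 1.07 (adjusted P = 0.412), and voomWithQualityWeights at 2.40 with a 95% confidence interval of 0.20 to 4.60 (adjusted P = 0.365). The fitted value moved with single libraries, from 2.08 in edgeR without Graft 2 to 3.62 without Control 3. Graft 2, with the highest value, had 648 CPM of neutrophil and 85.7 CPM of monocyte genes.

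**Figure D2:**
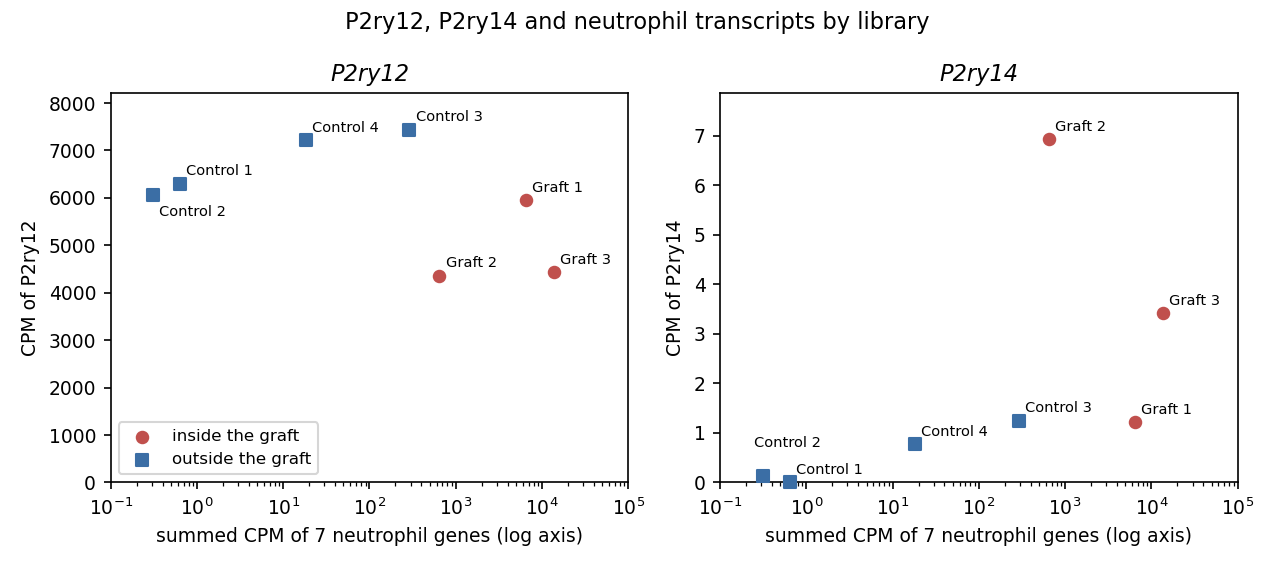
CPM of P2ry12 (left) and P2ry14 (right) against the summed CPM of 7 neutrophil genes on a log axis, 1 point per library, circles from inside and squares from outside the graft. Graft 2 has 648 CPM of neutrophil genes, the least of the inside libraries, with the lowest P2ry12 and the highest P2ry14.

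P2ry6 (ENSMUSG00000048779.5, chromosome 7 from 100937630 to 100974649, minus strand) encodes a Gq-coupled UDP receptor linked to phagocytosis by microglia. It had 302, 353 and 288 CPM in Graft 1 to 3 and 323, 362.6, 386 and 378 CPM in Control 1 to 4. Graft 2 lay within the range of the outside libraries and the other 2 inside libraries below it. The edgeR estimate of the log2 fold change was -0.21 with a standard error of 0.12 (adjusted P = 0.643), and that of voomWithQualityWeights was -0.25 with a 95% confidence interval of -0.47 to -0.037 (adjusted P = 0.316). Scaled to the microglia markers it was -0.083 in edgeR. P2ry6 was not called, and its estimate was smaller in size than that of P2ry12, although the difference between these genes was not tested.

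The channel genes P2rx7 and P2rx4 lie 16111 bases apart on the plus strand of chromosome 5, P2rx7 (ENSMUSG00000029468.17) from 122643911 to 122691432 and P2rx4 (ENSMUSG00000029470.15) from 122707544 to 122729738. P2rx7 encodes the channel opened by high concentrations of ATP that activates the inflammasome, and P2rx4 one opened by lower concentrations and found largely on lysosomes. P2rx4 had 149, 250.04 and 196 CPM in Graft 1 to 3 and 152, 169.6, 141 and 163 CPM in Control 1 to 4. Graft 2 and 3 were above all outside libraries, while Graft 1 lay among them. edgeR put the log2 fold change at 0.35 with a standard error of 0.16 (adjusted P = 0.554), and voomWithQualityWeights at 0.30 with a 95% confidence interval of -0.050 to 0.65 (adjusted P = 0.504). The library Graft 2 carried much of this estimate, which in edgeR was 0.15 without it (range over all alternatives 0.15 to 0.52).

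P2rx7 had 193, 195 and 231 CPM inside and 237, 218, 215 and 273 CPM outside the graft. The highest inside library lay between the outside ones, and edgeR put the log2 fold change at -0.19 with a standard error of 0.12 (adjusted P = 0.709), and voomWithQualityWeights at -0.22 with a 95% confidence interval of -0.49 to 0.055 (adjusted P = 0.547). The edgeR value of P2rx7 was -0.11 without Control 4 and -0.063 with libraries scaled to the microglia markers. The 2 channel genes thus had estimates of opposite sign. The ratio of P2rx4 to P2rx7 CPM within a library was 0.772, 1.28 and 0.847 inside the graft and 0.641, 0.776, 0.656 and 0.596 outside it, so that only Graft 1 and Control 2 crossed.

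Of the 2 adenosine receptor genes among the members, Adora3 was well detected and Adora2a was not. Adora3 (ENSMUSG00000000562.5, chromosome 3 from 105870858 to 105908926, plus strand) encodes the Gi-coupled A3 receptor. It had 72.4, 75.4 and 70.1 CPM inside and 55.6, 84.999, 80.2 and 97.5 CPM outside the graft, so the inside values fell within the wider outside range. The edgeR estimate of the log2 fold change was -0.13 with a standard error of 0.18 (adjusted P = 0.895), and that of voomWithQualityWeights was -0.22 with a 95% confidence interval of -0.56 to 0.12 (adjusted P = 0.645). In edgeR the value ran from -0.27 without Control 1 to -0.018 without Control 4, so single libraries set its size. The level of Adora3 is uncertain because 20.9% of its exon length is shared with Tmigd3 on the same strand. Reads within the shared part do not tell these genes apart and may have been counted for neither. Tmigd3 had between 69 and 145 counts per library. Adora2a (ENSMUSG00000020178.6, chromosome 10 from 75316877 to 75334784), the gene of a Gs-coupled adenosine receptor, had 1 count in Control 1 and 0 counts in the other 6 libraries. A count of 0 allows up to 3 counts, or 0.118 to 0.133 CPM in these libraries, so Adora2a was not detectable at this depth beyond that 1 count.

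The 2 steps from ATP to adenosine were expressed unequally. Entpd1 (ENSMUSG00000048120.16, chromosome 19 from 40612366 to 40741602, plus strand), the gene of CD39, had 811, 729 and 665 CPM inside and 725, 729.6, 828 and 802 CPM outside the graft. The groups overlapped, with means of 735 ± 73.1 CPM (SD, n = 3) and 771 ± 51.7 CPM (SD, n = 4). edgeR put the log2 fold change at -0.069 with a standard error of 0.11 (adjusted P = 0.909), and voomWithQualityWeights at -0.093 with a 95% confidence interval of -0.29 to 0.11 (adjusted P = 0.761), the narrowest interval of the 9 members. The edgeR value of Entpd1 ran from -0.14 without Graft 1 to -0.0031 without Graft 3, and its sign turned to 0.051 in both tests when libraries were scaled to the microglia markers. Nt5e (ENSMUSG00000032420.8, chromosome 9 from 88327197 to 88372092, plus strand), the gene of CD73, had 0, 18 and 1 counts in Graft 1 to 3 and 16, 0, 0 and 30 counts in Control 1 to 4. In neither group did all libraries have counts. The log2 fold change of Nt5e was -0.88 in edgeR (standard error 1.73, adjusted P = 0.932) and -0.52 in voomWithQualityWeights, with a 95% confidence interval of -5.36 to 4.31 (adjusted P = 0.959), so these libraries do not set its direction.

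**Figure D3:**
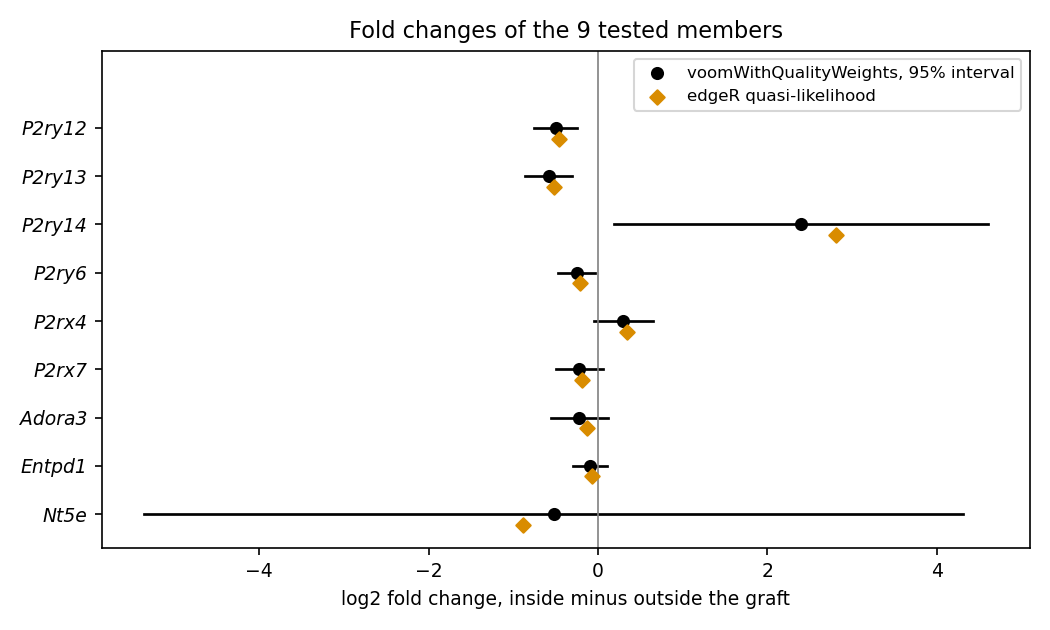
Log2 fold change inside minus outside the graft of the 9 tested genes, with circles and bars for voomWithQualityWeights and its 95% confidence interval and diamonds for edgeR. P2ry12 and P2ry13 have intervals below 0 (-0.75 to -0.24 and -0.86 to -0.31), P2ry14 is above 0 with a wide interval and Nt5e spans from -5.36 to 4.31.

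Levels of different genes were compared per length of merged exons, in CPM per kilobase averaged over all 7 libraries. The order was P2ry12 (2343), P2ry13 (683), Entpd1 (135), P2ry6 (118), P2rx7 (37.4), P2rx4 (24.8), Adora3 (20.5), P2ry14 (0.177), Nt5e (0.0483) and Adora2a (0.00249). P2ry12 ranged from 1712 to 2922 CPM per kilobase and P2ry13 from 451 to 883, so that the first places were apart in all libraries. Entpd1 (119 to 148) and P2ry6 (99.8 to 134) overlapped in range, as did P2rx7 (32.4 to 45.7) with P2rx4 (20.1 to 35.6) and P2rx4 with Adora3 (14.9 to 26.2). The exon lengths include all annotated transcripts, which lowers the value of a gene such as P2ry14 with 11059 merged bases. Of the summed level of the 8 receptors per kilobase, P2ry12 held 69.9% to 74.5% and P2ry13 18.996% to 22.6% in each library. P2rx4 held 0.677%, 1.499% and 1.12% of this sum in Graft 1 to 3 and 0.502% to 0.739% in the outside libraries. Together the 10 genes took 0.891%, 0.675% and 0.747% of all counts in Graft 1 to 3 and 0.967%, 0.944%, 1.15% and 1.12% in Control 1 to 4, without overlap, and P2ry12 made up most of these counts.

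Of 51 other genes of the purinergic system, 36 passed the filter, and 0 were called at an adjusted P below 0.05 in edgeR and 0 in voomWithQualityWeights. At an unadjusted P below 0.05, 7 of the 36 passed in edgeR and 9 in voomWithQualityWeights, against 9.55% and 12.2% of all genes tested. Their median log2 fold change was 0.042 in edgeR, with 21 positive and 15 negative values. DESeq2 called 4 of them at an adjusted P below 0.05, Acpp, Pnp, Gnas and Adora1, of which Acpp passed 0.01, against 2.76% and 1.52% of all genes. In CPM, 3 of the 36 lay higher in every inside library (P2ry2, Adora1 and Acpp), against 5.65% of all genes, and 2 lower (Pnp and Slc29a1), against 5.02%. Acpp passed the filter only through the inside libraries, where it is high, and P2ry2 would not have passed on the outside libraries alone. The place of both genes in these counts follows in part from that selection. Of these names, Acpp, Pnp, Gnas and P2ry2 were chosen after their values were seen.

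Among the other receptors, the ATP-gated channel gene P2rx1 averaged 15.7 ± 6.37 CPM in the 3 inside and 21.7 ± 3.91 CPM in the 4 outside libraries (mean ± SD, as for the genes that follow, adjusted P = 0.671 in edgeR). P2ry10b, listed with the P2 receptors by its name and not by a known ligand, had 21.3 ± 8.40 and 24.4 ± 7.25 CPM (adjusted P = 0.915 in edgeR). Adora1, the gene of the A1 adenosine receptor, had 6.36, 20.8 and 13.7 CPM inside and 2.99, 3.78, 6.24 and 5.71 CPM outside, with every inside library above every outside one, which was so for 5.65% of all genes tested. Graft 2 had the highest value. The adjusted P of Adora1 was 0.206 in edgeR, 0.284 in voomWithQualityWeights and 0.0256 in DESeq2, and 20.1% of its exon length is shared with Mybph on the other strand. Adora2b had at most 1.09 CPM in a library. Of the other ectonucleotidases, Enpp1 (16.0 ± 5.53 CPM inside and 9.70 ± 3.89 CPM outside) and Enpp4 (31.7 ± 0.148 and 26.2 ± 4.55 CPM), which cleave extracellular nucleotides, had adjusted P values of 0.581 and 0.708 in edgeR. Acpp, the gene of an acid phosphatase that can hydrolyse AMP, had 20, 21 and 106 counts in Graft 1 to 3 and 0 counts in all 4 outside libraries. It thus passed the filter on low counts through the inside libraries alone, and its P values carry that selection. Its mean of 2.06 CPM inside the graft was at least 15.4-fold higher than the 3 counts per library that a count of 0 allows (adjusted P = 0.0919 in edgeR and 0.0577 in voomWithQualityWeights). Acpp was highest in Graft 3, the library with the most neutrophil transcripts. Graft 1 and Graft 2, with 6488 and 648 CPM of neutrophil genes, had 0.785 and 0.932 CPM of Acpp. Control 3, with 291 CPM of neutrophil genes, had 0 counts of Acpp. A relation to these transcripts was not tested.

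In the handling of adenosine, the nucleoside transporter gene Slc29a1 had 125, 121 and 113 CPM inside and 135, 153, 145 and 143 CPM outside the graft, without overlap, and an adjusted P of 0.429 in edgeR, while Slc29a3, whose product is a lysosomal nucleoside transporter, had 435 ± 54.0 and 447 ± 40.7 CPM. Pnp, the purine nucleoside phosphorylase gene, had 72.7, 66.8 and 80.3 CPM inside and 100.001, 100.6, 105 and 97.6 CPM outside, also without overlap, with a log2 fold change of -0.46 (adjusted P = 0.151 in edgeR and 0.0989 in voomWithQualityWeights). The intracellular NTPDase genes Entpd6 (47.4 ± 13.0 and 49.8 ± 5.34 CPM) and Entpd7 (25.95 ± 3.09 and 22.5 ± 1.51 CPM) had adjusted P values of 0.957 and 0.791. The channel genes Calhm2 (93.0 ± 8.60 and 98.7 ± 12.2 CPM) and Lrrc8d (129 ± 26.9 and 113 ± 4.62 CPM), from the group of nucleotide release, had adjusted P values of 0.910 and 0.760 in edgeR. Among signalling partners, the level of Gnai2, the gene of the G protein subunit that couples to P2ry12, was 1009.7 ± 53.9 CPM inside and 1002 ± 57.9 CPM outside the graft (log2 fold change 0.011, adjusted P = 0.988). Pycard, the gene of the inflammasome adaptor ASC, had 262 ± 32.9 and 261 ± 15.2 CPM (adjusted P = 0.995). Gnas, the gene of the stimulatory G protein subunit, had a log2 fold change of 0.79 (adjusted P = 0.184 in edgeR and 0.0123 in DESeq2), and its exons overlap those of 2 antisense genes.

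How the values of P2ry12 and P2ry13 moved under other settings was recorded for each test. Their log2 fold changes stayed negative in all 14 alternatives of each test, from -0.62 to -0.34 for P2ry12 and from -0.63 to -0.40 for P2ry13 in edgeR, and from -0.66 to -0.36 and from -0.69 to -0.45 in voomWithQualityWeights. In voomWithQualityWeights with each library left out, the adjusted P of P2ry12 ran from 0.0320, without Graft 1, to 0.423, without Control 3. That of P2ry13 ran from 0.0514, without Control 2, to 0.351, without Control 3, and it was 0.0473 with no filter on low counts.

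**Figure D4:**
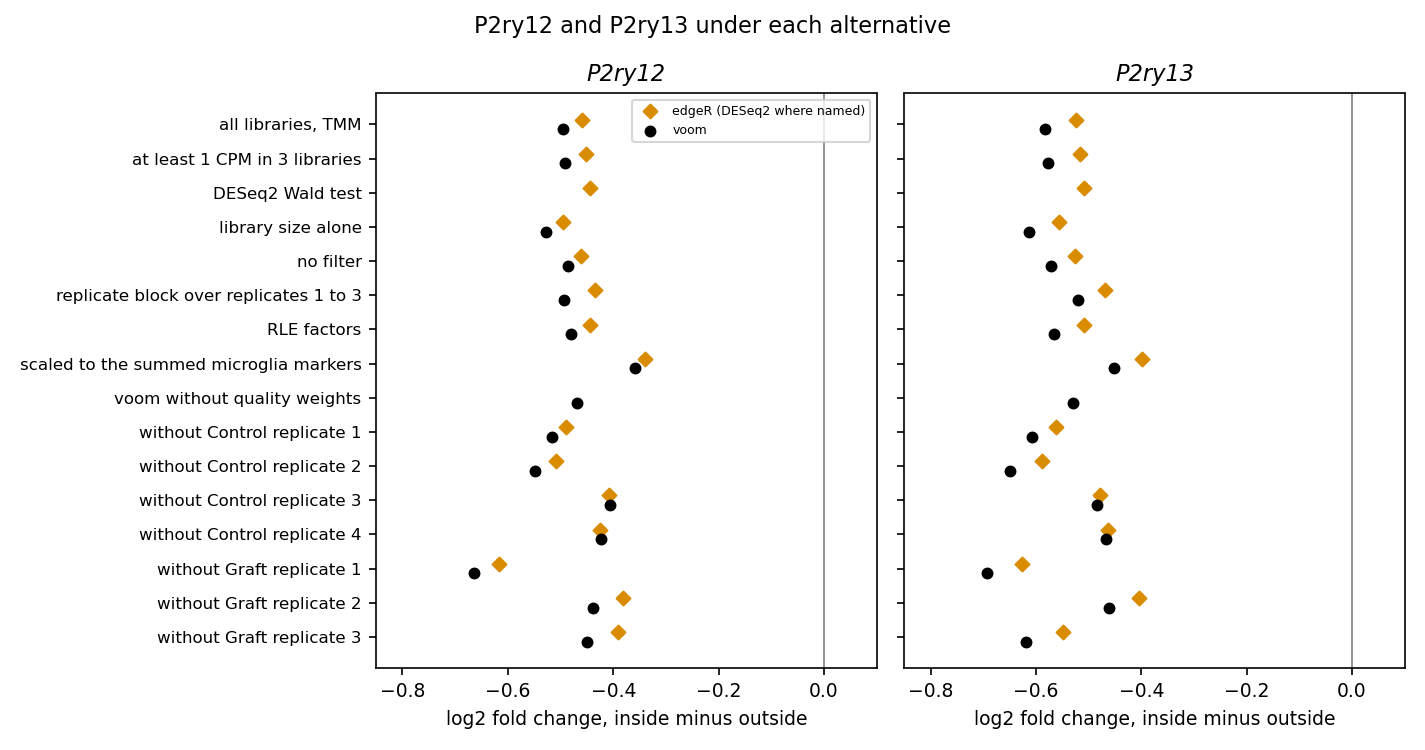
Log2 fold change of P2ry12 (left) and P2ry13 (right) inside minus outside the graft under each alternative, with diamonds for edgeR (DESeq2 in its own line) and circles for voom. All points lie below 0, nearest to it with libraries scaled to the microglia markers (-0.34 and -0.40 in edgeR).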

How the data were processed

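Microglia were measured by bulk RNA-seq (SMARTer cDNA, Nextera XT) in 3 libraries from inside and 4 from outside the graft, grouped by their titles. The authors aligned single reads with STAR 2.7.2a to GRCm38.p6 and deposited raw read counts per gene name, made with featureCounts 1.6.2 on GENCODE M21 exons, per the file headers without strand and without reads that align to several places. This lowers counts of near-identical copies. From these counts, CPM with TMM factors, filterByExpr by group, edgeR 4.0.16 (glmQLFit, glmQLFTest, robust=FALSE), limma 3.58.1 (voomWithQualityWeights) and DESeq2 1.42.0 were run in R 4.3.3. Standard errors in edgeR are those implied by the F statistic. Reads were amplified and carry no molecular identifiers, so limits drawn from a count of 0 cover counting error only. Libraries of a group differed by more than counting noise (chi-square per degree of freedom at least 16.6). Scripts were tested on simulated data. The members, the lists of other purinergic genes and of markers and the tests were chosen with earlier results of these data known. Named among the other purinergic genes were the 2 with the highest mean CPM of each group and any called at 0.05, with exceptions stated. Alternatives were RLE factors, library size alone, no filter, at least 1 CPM in 3 libraries, the replicate block, DESeq2, voom without weights and each library left out. Promoter windows are from RefSeq, where 8 of the 10 genes matched (not P2ry6 and Adora2a).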

Additional observations from a re-analysis of the deposited data

Results flagged for a closer look

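Over the 4 outside libraries, 24 values were examined for a library far from the others, where chance gives about 1 in 20, or 1.2, and 4 stood apart. Adora2a had 0.0534 CPM in Control 1, from 1 count, against 0 in the other 3 libraries. Adora2b had 1.09 CPM in Control 4 and was at 0 in the others. Entpd7 had 20.2 CPM in Control 3 against 23.2 to 23.3 CPM. Lrrc8d had 106 CPM in Control 1 against 115 to 116 CPM.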

How the results depend on the processing

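Under each of the 14 alternatives of either test, including DESeq2, 0 members passed 0.01. At 0.05 the edgeR count of 0 members became 2 with DESeq2 (P2ry12 and P2ry13), and the voomWithQualityWeights count of 0 became 1 without a filter (P2ry13) and 2 with the replicate block over replicates 1 to 3 (P2ry12, adjusted P = 0.0346, and P2ry13, adjusted P = 0.0201), where Control 4 is left out. With each library left out it ran from 0 to 0 in edgeR and from 0 to 1 in voomWithQualityWeights (P2ry12 without Graft 1, adjusted P = 0.0320). The labels do not say whether libraries of the same number share a mouse. Their deviations from the group means correlated at -0.043, 0.090 and 0.067 for numbers 1 to 3, below the 0.1 required for using the numbers as pairs, although 4 of 6 libraries correlated best with their own number. The count of 0 other purinergic genes at 0.05 in edgeR became 4 with DESeq2 and 3 without a filter, and 0 to 1 with a library left out (1 without Graft 2). In voomWithQualityWeights it became 1 without a filter, 3 with the replicate block and 2 when scaled to the microglia markers, and 0 to 1 with a library left out (1 without Graft 2 and 1 without Graft 3). The median of the members in edgeR, -0.19, was -0.083 with the replicate block, -0.063 when scaled to the microglia markers and from -0.22 to -0.080 with a library left out (-0.080 without Control 4, over 8 genes). Of 244 single values of members under alternatives, 0 passed an adjusted P of 0.01 and 6 passed 0.05, those of P2ry12 and P2ry13 named above. The sign held in 240 and turned in 4: Adora3 in edgeR with the replicate block (0.0045), Entpd1 when scaled to the microglia markers (0.051 in both tests) and Nt5e in voomWithQualityWeights without Graft 1 (0.80, its leave-one-out range being -1.90 to 0.80). The cause was not tested. Counts of a few reads limit P2ry14, Nt5e and Adora2a.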
